A study of Mus musculus with 21 samples.

Results

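The osteocalcin genes Bglap and Bglap2, the osteopontin gene Spp1 and the matrix Gla protein gene Mgp were followed by gene symbol through RNA from mouse colon and ileum. They are 4 of the 21441 genes in each table, and all were found. The genes were selected on their FPKM values in these same tables, that is on their levels and group differences, so those are given as a description. They are best known from bone and cartilage. Osteocalcin is a small protein that osteoblasts secrete and that binds mineral through glutamate residues carboxylated with the help of vitamin K, and matrix Gla protein carries the same modification and keeps soft tissue, the arterial wall above all, free of mineral. Osteopontin is an acidic, phosphorylated glycoprotein of the SIBLING family that binds integrins and CD44. It is made by bone cells and also by macrophages and epithelia. In bone cells, Spp1 and human osteocalcin are classical targets of the vitamin D receptor (VDR), which is switched on by the hormone form of vitamin D, 1,25D3.

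The study concerns the part of the distal gut in calcium balance and bone mineral. All mice were on the C57BL6J background, and their tissue is labelled as intestinal epithelium, though the extraction protocol also covers whole tissue and does not say which was used for each library. The KO group, named Villin-CreERT2 VDR f/f, carried floxed Vdr with a Cre under the epithelial villin promoter that acts once induced, received no treatment and was 9 or 11 weeks old. The second group, CDX2-VDR transgenic mice, lacked their own VDR and made human VDR in the distal intestine. They were uninjected at 9 or 10 weeks of age, or treated at 9 weeks with 3 injections of 1,25D3 at 1 ng per g of body weight, 48, 24 and 6 h before the end. The colon gave 4 KO, 4 uninjected and 3 treated libraries, and the ileum gave 4, 3 and 3. The way in which endogenous VDR was lost differs between KO and transgenic mice, besides the transgene. Injection coincides with 1,25D3, and these cannot be told apart. KO and treated mice are labelled male, whereas all uninjected mice but 1 in each tissue are labelled female. Comparisons with the uninjected group thus also differ in labelled sex, which cannot be fully told apart from them. Libraries are named by the number in their column. Numbers of treated and of uninjected ileum columns tie them to a group and not to an animal.

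Depth estimated from the steps between low values ran from about 7670000 to 44900000 reads per library. These estimates are not totals given by the submitters. Vdr was listed at 20.6 to 23.5 FPKM (fragments scaled to transcript length and library size) in the KO colon and at 12.7 to 34.0 in the uninjected colon. Which part of the transcript those values cover is not given, so they do not check the deletion. Targets of VDR differed as labelled: the calcium channel gene Trpv6 had a mean of 0.393 FPKM in the KO colon and 205 FPKM in the uninjected colon (log2 difference 7.66, SE 0.472, adjusted p from limma 0.000384). For the Y-linked gene Ddx3y, Ileum treated 1, of a group labelled male, held 1.76 FPKM, beside 11.4 and 15.1 FPKM in treated 2 and 4. Xist, a gene expressed in female cells, was at 5.91 FPKM in Colon uninjected 2 and at 0.0546 to 0.260 FPKM in the other uninjected colon libraries. Colon uninjected 1 held little of either gene, 0.0889 FPKM of Xist and 0.0979 FPKM of Ddx3y. Ileum uninjected 1 likewise held 0.0805 and 0.0347 FPKM. The library Colon uninjected 3, labelled female, held 12.1 FPKM of Ddx3y. That library also carried 138306 FPKM summed over 12 pancreatic acinar markers, Colon KO 2 carried 40580 and, in a table with the treated group, Colon treated 4 carried 23920. Smooth muscle markers were at 849 to 9216 FPKM summed over 8 genes in the colon table of uninjected and KO libraries, beside 7603 to 19266 for 10 epithelial markers, so the tissue was not epithelium alone.

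In the mm9 annotation the osteocalcin copies lie side by side on the minus strand, Bglap at chr3:88187423-88188386 and Bglap2 at chr3:88181658-88182621, with 4802 bases between them. Spp1 is at chr5:104864137-104870069 on the plus strand and Mgp at chr6:136820957-136824326 on the minus strand. All 4 are annotated as protein-coding genes, and the values are totals over each gene. The coding sequences of the osteocalcin copies are shown because their likeness limits what reads can tell about either gene. Both run to 288 bases in the GENCODE transcripts of this build and differ at 4 positions, written in capitals, which makes them 98.6% identical. Counted from the A of the start codon, with the base of Bglap first, the differences are A10C, T14C, A31G and T273C.
Bglap: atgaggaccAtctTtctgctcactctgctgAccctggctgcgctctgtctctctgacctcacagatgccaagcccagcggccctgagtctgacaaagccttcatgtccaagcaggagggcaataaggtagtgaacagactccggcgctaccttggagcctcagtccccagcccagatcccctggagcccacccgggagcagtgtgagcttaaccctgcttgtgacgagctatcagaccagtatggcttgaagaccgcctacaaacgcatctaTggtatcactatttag
Bglap2: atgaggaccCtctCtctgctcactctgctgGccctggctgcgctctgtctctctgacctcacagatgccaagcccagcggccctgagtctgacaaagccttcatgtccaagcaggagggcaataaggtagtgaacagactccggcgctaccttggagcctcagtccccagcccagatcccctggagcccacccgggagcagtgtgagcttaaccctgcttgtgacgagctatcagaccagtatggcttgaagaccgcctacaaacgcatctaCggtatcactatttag
Of the 239 stretches of 50 bases in the Bglap coding sequence, 192 (80.3%) also occur in Bglap2, because 3 of the 4 differences fall within the first 31 bases. How reads shared by the copies were assigned is not given in the sources used here, and values of either copy alone are uncertain for that reason.

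Promoter windows from RefSeq on GRCm38.p6 were available for Bglap and Spp1. They are shown because both genes are known as targets of Runx2 in bone cells, and Spp1 and human osteocalcin as targets of VDR. Each run holds the 250 bases before the annotated start. The letters of the Runx core (ACCACA) and of the TATA box (TATAAA) are in capitals wherever they occur. The first is chr3:88384467-88384716 on the minus strand and the second is chr5:104434861-104435110 on the plus strand.
Bglap promoter: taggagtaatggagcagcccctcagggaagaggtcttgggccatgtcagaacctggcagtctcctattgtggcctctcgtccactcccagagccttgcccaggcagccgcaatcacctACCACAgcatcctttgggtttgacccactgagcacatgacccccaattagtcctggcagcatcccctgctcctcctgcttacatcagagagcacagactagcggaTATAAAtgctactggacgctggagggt
Spp1 promoter: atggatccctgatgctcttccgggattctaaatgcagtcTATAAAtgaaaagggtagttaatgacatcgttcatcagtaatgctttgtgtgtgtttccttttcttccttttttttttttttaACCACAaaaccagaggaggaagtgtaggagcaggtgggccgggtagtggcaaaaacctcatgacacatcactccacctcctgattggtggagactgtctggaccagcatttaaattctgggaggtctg
In both windows ACCACA begins at a similar distance from the start, at -132 in Bglap and at -128 in Spp1. TATAAA begins at -27 in Bglap and at -211 in Spp1. Over all 32851 RefSeq windows of 300 bases, 16.8% hold ACCACA and 13.6% hold TATAAA on either strand. A direct repeat of VDR half-sites with a spacer of 3 bases was found in neither window and in 0.0396% of all windows, and the CDX core TTTATG was in neither and in 11.9% of all. These matches describe letters only, and sequence outside the windows was not searched. A second annotated start of Spp1 had none of these motifs in its window.

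The osteopontin gene Spp1 was the member whose groups stood furthest apart. In the colon table of treated and KO libraries, Spp1 was at 0.468, 2.12, 0.174 and 0 FPKM in KO 1 to 4. It was at 9.44, 16.3 and 13.2 FPKM in treated 1, 2 and 4. Every treated library was above every KO library. The means were 13.0 ± 3.43 FPKM (SD, n = 3) and 0.691 ± 0.974 FPKM (SD, n = 4), a log2 difference of 3.78 (SE 0.529), or 13.7-fold on the log2(FPKM + 0.5) scale. That scale makes changes of weakly expressed genes look smaller. Spp1 passed the threshold of the limma fit over all genes, and was the only 1 of the 3 tested members to do so in this comparison, in which 0.296% of 12505 tested genes passed and 4.16% were higher in treated libraries without overlap. Nothing is read from that count, since the choice of genes used this contrast. The call was kept in 5 of 13 alternative settings, with log2 differences from 3.17 to 4.89 over all of them. It was lost without any 1 of KO 1 (3.78), KO 3 (3.61), KO 4 (3.46), treated 1 (3.98), treated 2 (3.60) or treated 4 (3.75), with a pseudocount of 0.1 (4.89) and without the filter on low values (3.78). Without the 2 libraries rich in acinar transcripts, KO 2 and treated 4, the difference was 4.23 and the call was kept. In bulk tissue, fewer cells of a type and less RNA per cell cannot be told apart.

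Within the transgenic genotype, treated colon libraries were above 3 of the 4 uninjected ones. Beside treated values of 8.92, 15.3 and 12.6 FPKM in this table, uninjected 1, 2 and 4 had 0.442, 0.734 and 1.13 FPKM of Spp1. Colon uninjected 3 had 10.6 FPKM, inside the range of the treated libraries, so the groups overlapped. The log2 difference was 2.55 (SE 0.774) and did not pass, as for all of the 12567 genes tested here (0% called, with 143 at an unadjusted p under 0.05 and 1.03% higher without overlap). Without Colon uninjected 3 the difference was 3.34 and passed, the 1 of 13 alternative settings in which it did, with 4 genes passing in all. Leaving out the library whose high Spp1 opposed the difference favours a pass, so nothing is read from that pass. Uninjected against KO colon, Spp1 had means of 3.22 ± 4.92 (SD, n = 4) and 0.652 ± 0.920 FPKM (SD, n = 4), which overlap, with a log2 difference of 1.18 (SE 0.796). Most of that mean was the library Colon uninjected 3: the other uninjected libraries, at 0.438 to 1.13 FPKM, lay within the KO range of 0 to 2.00 FPKM.

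**Figure D1:**
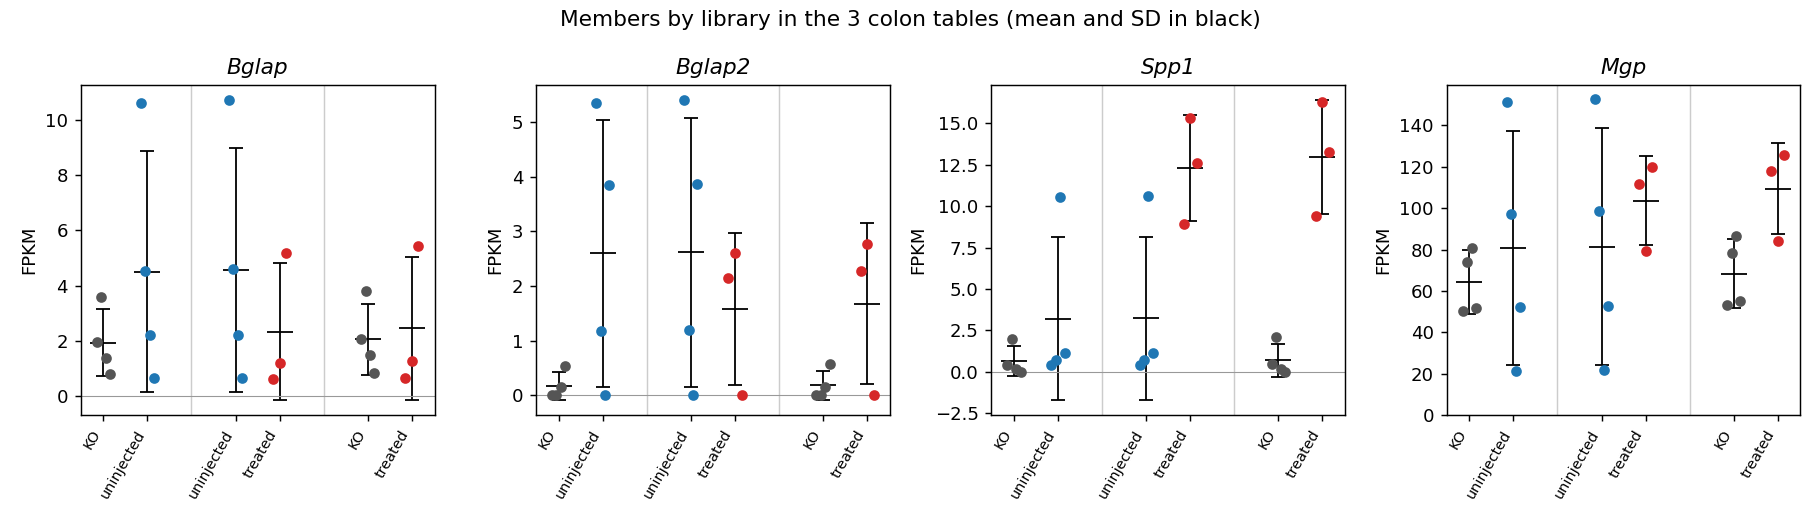
FPKM of the 4 genes in each colon library, in the 3 tables of paired groups, with the mean and SD of each group in black. Spp1 in treated libraries sits at 8.92 FPKM or above in both tables, against at most 2.12 FPKM in KO libraries, and 1 uninjected library stands at 10.6 FPKM, while the groups of the other 3 genes overlap.

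In the ileum too, Spp1 was higher in every treated library than in any KO library. KO 1 to 4 were at 0, 0.798, 0.842 and 0.329 FPKM and treated 1, 2 and 4 at 2.73, 3.80 and 6.96 FPKM. The means were 0.492 ± 0.402 (SD, n = 4) and 4.50 ± 2.20 FPKM (SD, n = 3), with a log2 difference of 2.35 (SE 0.437) and no overlap. Against uninjected libraries at 0.963, 2.49 and 0.529 FPKM in their shared table, treated ones at 2.50, 3.52 and 6.51 FPKM were also all higher, though Ileum uninjected 3 and Ileum treated 1 differed by little. The log2 difference there was 1.41 (SE 0.532). Neither ileum difference passed the threshold. In treated against KO ileum 0.0835% of 11974 genes passed and 3.03% were higher without overlap, and in treated against uninjected ileum 0% of 11815 passed (97 at an unadjusted p under 0.05) and 1.48% were higher without overlap. The treated comparisons of a tissue share their treated libraries, so they are not independent of each other. Between tissues, the treated minus KO effect on Spp1 was smaller in the ileum by 1.43 on the log2 scale (SE 0.730), and this difference did not pass in a test that called 0.00803% of 12448 genes. In the ileum table of uninjected and KO libraries, Spp1 had a mean under 1 FPKM (0.855 over all 7) and was not tested. Uninjected 1, 3 and 4 were at 0.996, 2.57 and 0.540 FPKM, beside 0 to 0.801 in the KO group.

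**Figure D2:**
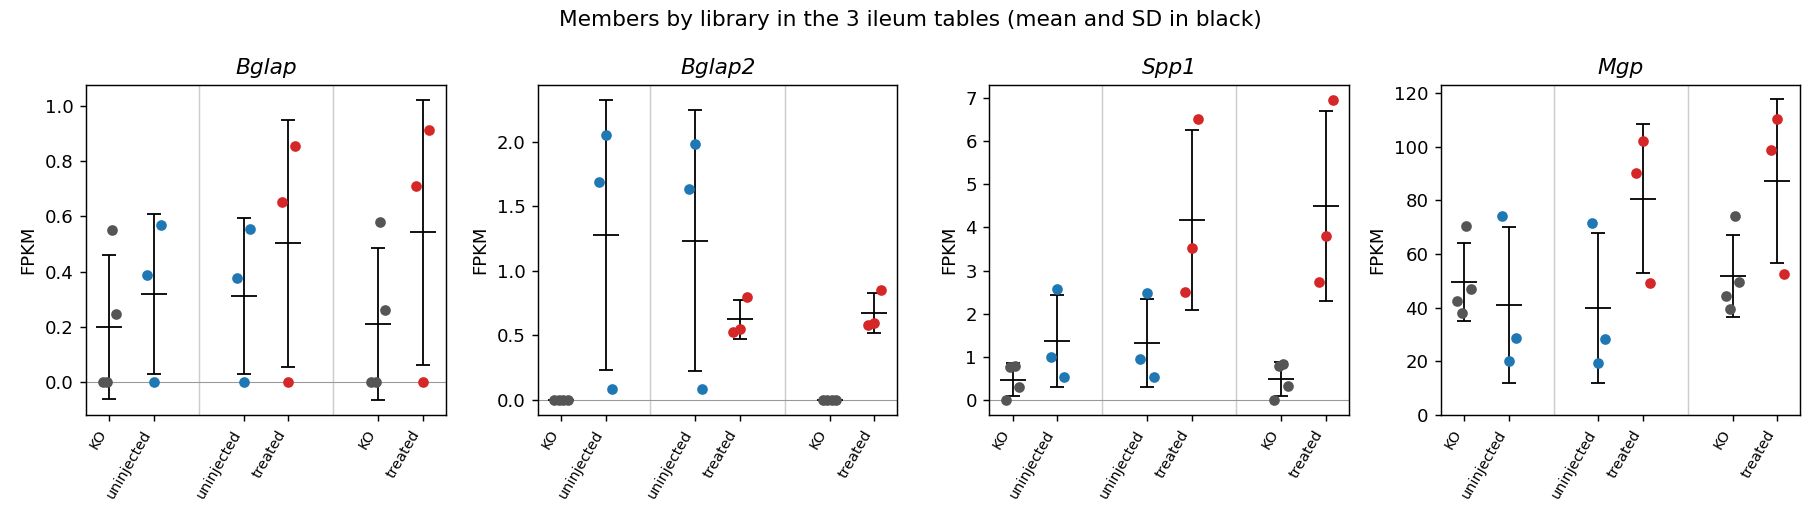
FPKM of the 4 genes in each ileum library, in the 3 tables of paired groups, with the mean and SD of each group in black. Treated libraries hold 2.50 FPKM of Spp1 or more and no KO library exceeds 0.842 FPKM, while Bglap stays under 1 FPKM throughout.

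Neutrophil markers were higher in the colon libraries with high Spp1 and in treated ileum libraries. Summed over the 7 neutrophil markers found, KO colon libraries held 4.36 to 6.03 FPKM. Treated 1, 2 and 4 held 18.7, 125.5 and 84.0 FPKM, in the same order of libraries as their Spp1. In the table of treated and uninjected colon, Colon uninjected 3, the uninjected library with high Spp1, held 14.95 FPKM, and the other uninjected libraries 4.82 to 5.63. In the ileum the sums were 7.23 to 9.66 FPKM in KO and 18.6 to 43.2 FPKM in treated libraries. In the table of treated and uninjected ileum they were 17.3 to 40.5 and 5.86 to 9.68 FPKM. Ileum uninjected 3 was thus among the low sums, though its Spp1 of 2.49 FPKM was close to the 2.50 FPKM of Ileum treated 1. Of 3 markers tested in treated ileum, 2 had higher values against KO and against uninjected libraries, and none passed. All 4 markers that could be tested in treated against KO colon had higher values, with a median log2 difference of 2.63, beside a median of -0.01 over all genes tested, and 1 passed: Retnlg, a resistin-like gene of neutrophils, rose from 0.682 to 0.917 FPKM in KO to 6.91 to 8.23 FPKM in treated colon (log2 difference 2.66, SE 0.188, limma adjusted p 0.00104). S100a8, a calcium-binding protein of neutrophils and monocytes, was at 0 to 0.781 and at 5.95 to 100 FPKM (log2 difference 5.35, SE 0.851, adjusted p 0.0567). At 100 FPKM, S100a8 made up most of the largest sum, 125.5 FPKM, and Retnlg varied little between treated libraries. The order of the sums is thus not shown for each marker. The granule genes Mpo and Elane, which mark immature neutrophils, were at or near 0, at most 0.0173 and 0.137 FPKM in that table. The part of these cells in the Spp1 values was not tested.

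Macrophages are a known source of osteopontin. Their 13 markers summed to 281 to 325 FPKM in KO and to 429 to 562 FPKM in treated colon libraries, without overlap. Of the 13, 12 had higher values in treated colon (median log2 difference 0.72) and none passed, with 8 at an unadjusted p under 0.05. Over all 12505 genes tested there, 6131 had higher values and 914 were at an unadjusted p under 0.05. Macrophage sums did not follow Spp1 in every library. Colon uninjected 3 had the lowest macrophage sum among the uninjected, 257 FPKM, with its Spp1 at 10.6 FPKM, and Colon uninjected 2 had the highest, 584 FPKM, with Spp1 at 0.726 FPKM. In the ileum, the sums of KO (292 to 412 FPKM) and treated libraries (332 to 687 FPKM) overlapped. Epithelial markers, 10 genes, summed to 10905 to 14924 FPKM in KO and to 8176 to 13084 FPKM in treated colon. The 6 goblet and Paneth cell markers were lower without overlap in sum, at 9051 to 12872 FPKM in KO and 4395 to 6118 FPKM in treated colon (median log2 difference -0.75, none passed, 4 at an unadjusted p under 0.05). Of these 6, 2 had higher values in treated colon, Mmp7 among them. The part of macrophages or of the epithelial makeup in the Spp1 values was not tested.

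By the lowest of its Pearson correlations of log2 values in the 3 colon tables (7 or 8 libraries each), the genes most like Spp1 among 12199 were S100a8 (0.903), the monocyte chemokine gene Ccl2 (0.842), Ggct (0.831), Fam183b (0.829) and Snhg3 (0.827). Ccl2 was at 1.35 to 1.90 FPKM in KO and at 15.2 to 29.1 FPKM in treated colon, and rose past the threshold (log2 difference 3.36, SE 0.240, limma adjusted p 0.00104). These correlations run over libraries of groups that differ in Spp1 and are a description.

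**Figure D3:**
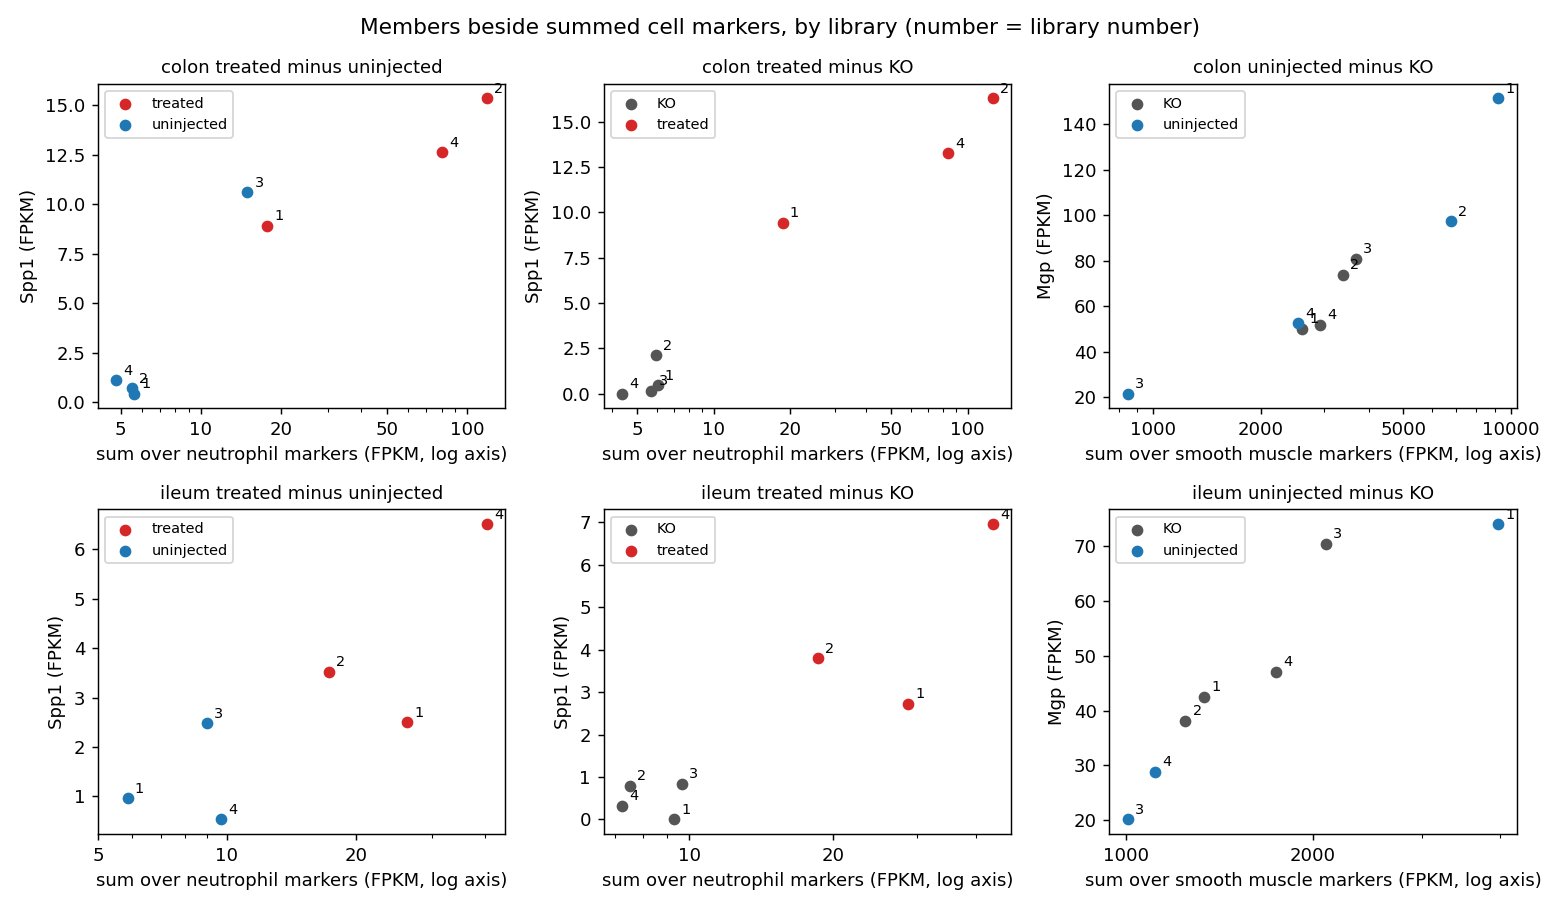
FPKM of Spp1 or Mgp against the FPKM summed over neutrophil or smooth muscle markers (log axis), 1 point per library with its number, in 6 of the tables by tissue and pair of groups. In the colon table of treated and uninjected libraries, the 4 with Spp1 above 8 FPKM hold 14.95 FPKM or more of neutrophil markers, and in both tables of uninjected and KO libraries the one with the lowest smooth muscle sum also has the lowest Mgp.

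The osteocalcin copies were close to the limit of detection. Their values were whole multiples of a step in each library, so read counts can be given as the smallest whole numbers that fit all tables of a tissue. For Bglap2 in treated ileum, the table with KO libraries alone would allow 1, 1 and 2 reads, and the table with uninjected libraries set 3, 3 and 6. Counts computed from annotated exon length and estimated depth were 1.75 times as high for Bglap and 1.45 times for Bglap2, so the counts are firm relative to each other and not in absolute number. Bglap had 15, 30, 10 and 8 reads in Colon KO 1 to 4, 58, 29, 6 and 9 in uninjected 1 to 4, and 6, 4 and 41 in treated 1, 2 and 4. For Bglap2 the KO colon gave 0, 0, 1 and 5 reads, uninjected libraries 27, 7, 0 and 48, and treated ones 19, 8 and 0. Within groups the copies did not keep 1 ratio: Colon treated 4 had 41 reads of Bglap and 0 of Bglap2, and Colon uninjected 4 had 9 and 48. On these counts, a 0 allows up to 3 reads, worth 0.413 to 1.20 FPKM of Bglap2 in the 4 colon libraries without a read. These limits cover counting error only.

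In FPKM, Bglap in the colon was 1.96, 3.59, 1.40 and 0.789 in KO 1 to 4 and 10.6, 4.54, 2.22 and 0.666 in uninjected 1 to 4. The groups overlapped, with the highest and the lowest value both in the uninjected group, and the log2 difference was 0.71 (SE 0.644). Treated 1, 2 and 4 had 0.663, 1.27 and 5.42 FPKM in the table with KO libraries (2.08, 3.81, 1.50 and 0.839), a log2 difference of -0.02 (SE 0.592). Treated against uninjected, the means were 2.33 ± 2.48 (SD, n = 3) and 4.55 ± 4.42 FPKM (SD, n = 4), with a log2 difference of -0.73 (SE 0.805). No contrast of the colon thus separated Bglap beyond the spread between libraries.

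Bglap2 was the copy with fewer reads in KO colon. It was listed at 0, 0, 0.151 and 0.534 FPKM in KO and at 5.35, 1.19, 0 and 3.85 FPKM in uninjected libraries. Means were 0.171 ± 0.252 and 2.60 ± 2.44 FPKM (SD, n = 4 each), the log2 difference was 1.75 (SE 0.713), and the groups overlapped because Colon uninjected 3 had no read. None of the 4 members passed in this comparison, in which 0.0804% of 12437 genes did and 1.22% were higher without overlap. Treated libraries had 2.28, 2.76 and 0 FPKM of Bglap2 against 0, 0, 0.162 and 0.568 in KO, and this pair was under the level filter, at a mean of 0.824 FPKM. Treated minus uninjected, the log2 difference was -0.43 (SE 0.941).

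In the ileum both copies had means under 1 FPKM in every table and were not tested. Bglap had 0, 0, 3 and 4 reads in KO 1 to 4, 3, 0 and 7 in uninjected 1, 3 and 4 and 4, 0 and 7 in treated 1, 2 and 4. Bglap2 had no read in any KO library, 12, 6 and 1 in the uninjected and 3, 3 and 6 in the treated libraries. All transgenic ileum libraries thus had at least 1 read and no KO library had any. Among the tested genes, which do not include Bglap2, 5.26% were higher without overlap in uninjected against KO ileum and 3.03% in treated against KO ileum. No share was taken for both together or for genes under the level filter. In FPKM, Bglap2 was at 1.69, 2.05 and 0.0879 in uninjected libraries. The 3 reads that a count of 0 allows are worth 0.211 to 0.629 FPKM in the KO libraries. The lowest transgenic value is inside that allowance.

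Markers of bone cells were low and uneven. Of 6 osteoblast and osteocyte markers, Mepe was listed at 0 in every library and Sost in most. Phex, an endopeptidase of osteocytes, was the most abundant, at 0.627 to 0.847 FPKM in KO and 0.446 to 4.68 FPKM in uninjected colon, and the osteoblast factor gene Sp7 reached 0.108 FPKM in KO and 1.37 FPKM in uninjected colon. The summed level was 0.913 to 6.63 FPKM in the colon table of uninjected and KO libraries, highest in Colon uninjected 3. The part of such cells in the osteocalcin values was not tested. By likeness over the colon tables, the genes closest to Bglap were Car4 (lowest r 0.896), Lass4 (0.891), Cyp2d10 (0.852), Lix1 (0.850) and Pyy (0.846). Car4 encodes a carbonic anhydrase of surface colonocytes and Pyy a hormone of enteroendocrine cells. Car4 ranged from 478 to 2657 FPKM over uninjected and from 529 to 989 FPKM over KO colon libraries. For Bglap2 no such list was drawn, since it was under the level filter in 1 colon table.

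Mgp was by far the most abundant of the 4 on the FPKM scale, which is per length. It ranked 1406th of 21441 genes in the colon table of uninjected and KO libraries, where Bglap ranked 9795th, Spp1 11004th and Bglap2 11761st. In that table Mgp was at 50.2, 73.8, 80.9 and 51.9 FPKM in KO 1 to 4 and at 151, 97.4, 21.5 and 52.5 FPKM in uninjected 1 to 4. The log2 difference was 0.03 (SE 0.524), and the uninjected libraries alone spanned the whole range. Treated colon libraries had 118, 84.3 and 126 FPKM beside 53.2, 78.2, 86.7 and 55.2 in KO, a log2 difference of 0.68 (SE 0.241) that did not pass, with treated 2 below KO 3. Treated minus uninjected colon, the log2 difference was 0.66 (SE 0.599).

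Mgp also varied within groups of the ileum. It was at 44.3, 39.7, 74.1 and 49.7 FPKM in KO and at 98.8, 110 and 52.6 FPKM in treated libraries, a log2 difference of 0.71 (SE 0.336). Uninjected libraries had 74.0, 20.1 and 28.9 FPKM against 42.5, 38.2, 70.5 and 47.1 FPKM in KO, a log2 difference of -0.45 (SE 0.439), in a comparison in which 0.00846% of 11827 genes passed. Treated minus uninjected ileum, the means were 80.6 ± 27.8 and 39.8 ± 27.9 FPKM (SD, n = 3 each), a log2 difference of 1.16 (SE 0.548). All 3 ileum comparisons of Mgp overlapped and none passed.

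Among uninjected libraries, Mgp and smooth muscle markers had the same order in the colon. In the colon table of uninjected and KO libraries, the library with the most Mgp, uninjected 1, held 9216 FPKM summed over 8 smooth muscle markers, uninjected 2 held 6811, uninjected 4 held 2537 and uninjected 3, with the least Mgp, held 849 FPKM. KO libraries held 2609 to 3688 FPKM. Uninjected 3 is also the library with 138306 FPKM summed over acinar markers, and the effect of that load on its other values was not tested. In the ileum, uninjected 1 with 74.0 FPKM of Mgp held 3974 FPKM and uninjected 3 and 4 held 1007 and 1113 FPKM. Treated colon departed from that order. All 3 treated libraries held less of these markers (1674 to 2111 FPKM) than any KO library (2764 to 3953 FPKM), with Mgp at 84.3 to 126 FPKM. Of 10 fibroblast markers, 8 had higher values in treated against KO colon and 10 in treated against KO ileum, and none passed. Of 7 endothelial markers tested, 1 and 5 had higher values there, and none passed. Over all genes tested, 6131 of 12505 and 6014 of 11974 had higher values. The part of muscle, fibroblasts or endothelium in the Mgp values was not tested. The colon gene most like Mgp was Kcnj8 (lowest r 0.938), a potassium channel subunit known from pericytes and vascular muscle, followed by Mab21l2 (0.880), Inpp5j (0.854), Aldh1a2 (0.822) and Cnrip1 (0.820). In the ileum, over 6 or 7 libraries and 11607 genes, they were Naaa (0.788), Grp (0.785), 6330403K07Rik (0.763), Clk2 (0.758) and Giyd1 (0.747).

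**Figure D4:**
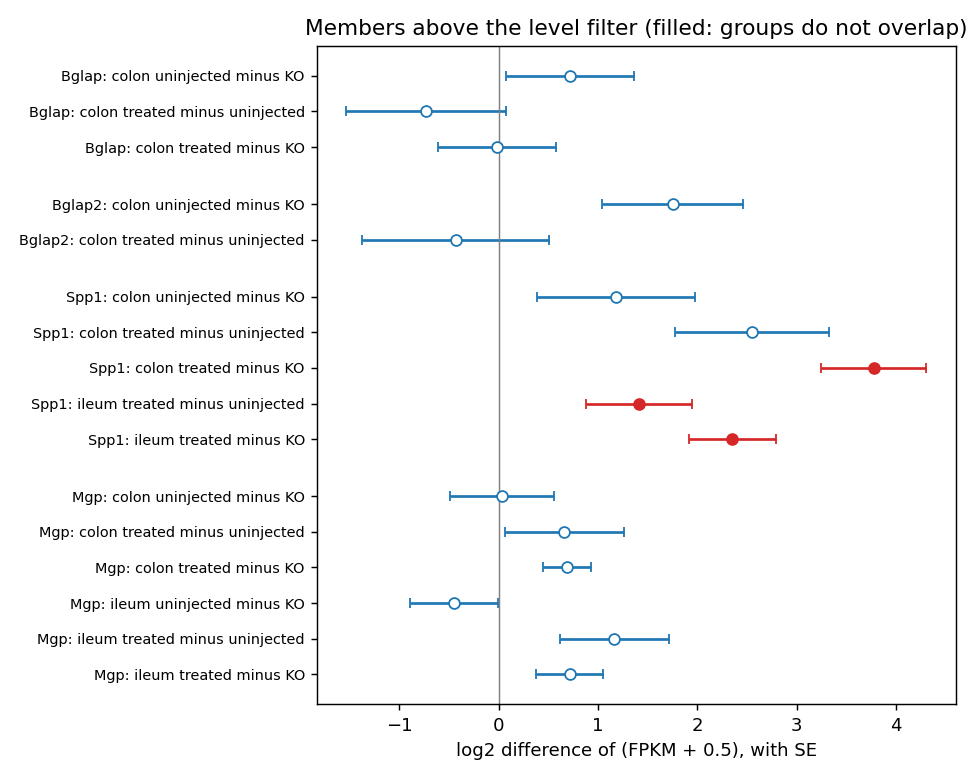
Log2 differences of FPKM + 0.5 with their SE for each of the 4 genes where it passed the level filter, by comparison, with filled red points where the groups do not overlap. Spp1 has the 3 filled points, at 3.78, 1.41 and 2.35, and the other genes have intervals of 1 SE that reach 0 or overlapping groups.

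The level filter, a mean of at least 1 FPKM, was passed by all 4 genes in both colon comparisons with uninjected libraries and by Bglap, Spp1 and Mgp in treated against KO colon. In the ileum it was passed by Mgp alone in uninjected against KO and by Spp1 and Mgp in the others. For none of the members did the effects in ileum and colon differ past the threshold, in tests that called 0.00809% of 12364 genes for uninjected minus KO and 0% of 12437 for treated minus uninjected.

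Other proteins of mineral matrix were compared for context, in lists chosen with earlier results of these data known. Of 13 genes of SIBLING and mineral matrix proteins, which include Spp1, 9 were tested in treated against KO colon and 8 had higher values. Their median log2 difference was 0.47, beside -0.01 over all genes tested, and Spp1 was the 1 that passed. Smoc1, a secreted calcium-binding protein, was higher without overlap (log2 difference 1.09, SE 0.433, limma adjusted p 0.649), as it was in uninjected against KO colon (1.18, SE 0.433, adjusted p 0.721). Of all genes tested, 4.16% and 1.22% were higher without overlap in these comparisons. Sparcl1, a relative of osteonectin, had a lower value in treated colon (log2 difference -0.51, SE 0.203, adjusted p 0.649). The SIBLING genes next to Spp1 on chromosome 5 were all but silent: Mepe was listed at 0 in every library and Ibsp, bone sialoprotein, had means of 0.0317 FPKM in treated and 0.00443 FPKM in KO colon.

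Enzymes and transporters that set local phosphate and pyrophosphate did not pass in any of the 6 comparisons. Of 12, 9 were tested in treated against KO colon, with a median log2 difference of 0.11. Ank, which exports pyrophosphate, an inhibitor of mineral, came closest, with 39.7 and 23.7 FPKM in treated and KO colon (log2 difference 0.73, SE 0.148, limma adjusted p 0.135). The phosphatase Alpl, which removes pyrophosphate, was at 2.36 and 0.789 FPKM (log2 difference 1.26, SE 0.456, adjusted p 0.582). Nt5e, the ectonucleotidase CD73, was lower without overlap in uninjected against KO colon (log2 difference -1.10, SE 0.250, adjusted p 0.721), as were 1.49% of the genes tested. The phosphate transporter gene Slc20a1 had 34.3 and 80.5 FPKM in treated and KO colon (log2 difference -1.25, SE 0.415, adjusted p 0.504).

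Osteopontin's receptors and the proteases that cut it also had no member past the threshold. In treated against KO colon 13 of 15 were tested, 10 had higher values and the median log2 difference was 0.13. CD44, a receptor for osteopontin, was at 19.7 and 18.1 FPKM (log2 difference 0.12, SE 0.170). Integrin subunit genes Itga9 (log2 difference -0.69, SE 0.226, limma adjusted p 0.491) and Itgb3 (-0.81, SE 0.286, adjusted p 0.567) had lower values. Itga9 did not overlap, at 2.45 to 4.23 FPKM in KO and 1.65 to 2.06 FPKM in treated colon. The share of all genes lower without overlap there is not given. The matrix metalloproteinase genes Mmp7 (1.38, SE 0.355, adjusted p 0.307) and Mmp3 (1.18, SE 0.425, adjusted p 0.576) were higher without overlap, as were 4.16% of the genes tested. Higher without overlap were 3.03% of tested genes in treated against KO ileum, and 1.48% and 1.03% against uninjected libraries of ileum and colon. Mmp3 was higher without overlap in treated libraries of the ileum too, by 1.50 against KO (SE 0.360, adjusted p 0.525) and by 1.52 against uninjected libraries (SE 0.467, adjusted p 1.000), and by 1.39 against uninjected libraries of the colon (SE 0.539, adjusted p 1.000).

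For the vitamin K step that osteocalcin and matrix Gla protein need, 11 of 16 genes were tested in treated against KO colon, with a median log2 difference of -0.10. The carboxylase gene Ggcx was at 6.88 and 8.01 FPKM (log2 difference -0.20, SE 0.155) and the vitamin K reductase gene Vkorc1 at 38.9 and 46.5 FPKM (-0.25, SE 0.202). Pros1, protein S, was lower without overlap in uninjected against KO colon (log2 difference -1.07, SE 0.286, limma adjusted p 0.721), as were 1.49% of the genes tested. Neither Gprc6a nor Gpr158, proposed receptors of osteocalcin, reached the level filter. Genes that control osteoblasts and osteoclasts, 11 of 16 tested, had a median of 0.08 in treated against KO colon and none passed. Runx2, the master regulator of osteoblasts, had means of 2.58 and 0.809 FPKM (log2 difference 0.54, SE 0.725).

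**Figure D5:**
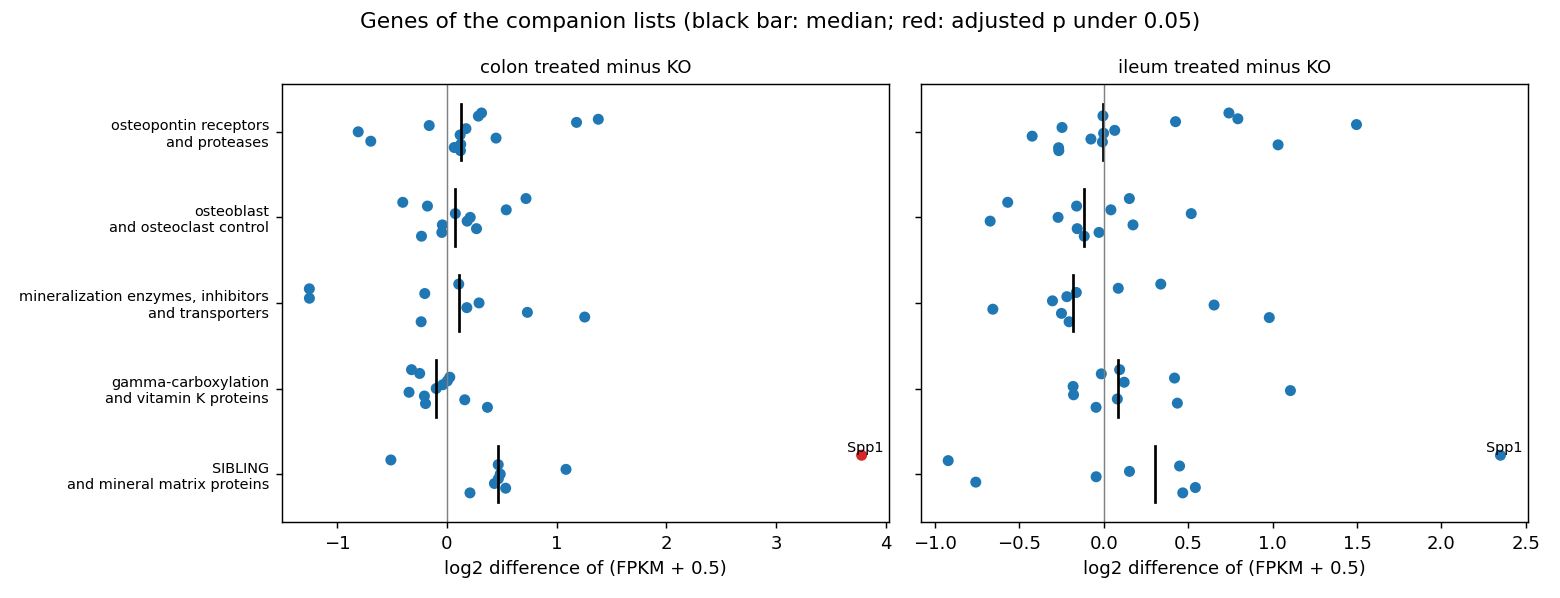
Log2 differences of FPKM + 0.5, treated minus KO, of the tested genes in 5 lists in colon (left) and ileum (right), with the median of each list as a black bar. Spp1, in the SIBLING list, is at 3.78 in the colon and 2.35 in the ileum, and list medians lie between -0.18 and 0.47.

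Known VDR targets gave a scale for these values. All 5 control genes rose in treated against KO colon, with a median log2 difference of 5.24, among them Cyp24a1, the enzyme that breaks down 1,25D3 (log2 difference 5.24, SE 0.386, limma adjusted p 0.00114). In uninjected against KO colon all 4 tested had higher values and 3 passed. In treated against KO ileum 3 of 4 had higher values and 2 passed. Treated minus uninjected, Cyp24a1 was higher without overlap in both tissues, as were 1.03% of tested genes in the colon and 1.48% in the ileum. Its log2 difference was 4.54 in the colon (SE 0.562, limma adjusted p 0.171) and 3.85 in the ileum (SE 0.583, adjusted p 0.471). None of the 5 control genes tested in either tissue passed, with 2 in the colon and 1 in the ileum at an unadjusted p under 0.05. In the ileum 2 of those 5 had higher treated values and the median was -0.16, and S100g, calbindin-D9k, had means of 889 FPKM in treated and 3074 FPKM in uninjected libraries (log2 difference -1.38, SE 0.941).

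Genes beside the members showed no call. On chromosome 3, Pmf1 was at 36.1 and 28.1 FPKM in treated and KO colon (log2 difference 0.31, SE 0.242), Slc25a44 at 9.27 and 10.5 FPKM (-0.19, SE 0.216), Smg5 at 22.2 and 20.8 FPKM (0.06, SE 0.202), and Paqr6 had means under 1 FPKM. Pkd2, beyond Spp1 on chromosome 5, was at 10.3 and 7.83 FPKM (0.32, SE 0.280). Around Mgp on chromosome 6, Arhgdib was at 9.59 and 6.92 FPKM (0.39, SE 0.387) and Erp27 at 5.003 and 4.05 FPKM (0.43, SE 1.44), while Art4 and BC049715 had means under 1 FPKM.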

How the data were processed

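Poly(A) RNA of 21 mouse gut samples was sequenced, per the labels' protocols. The authors deposited 6 tables of FPKM, each holding 2 groups from 1 tissue. CLC Genomics Workbench is the mapper in the labels' protocols. Beside it, the submitters' processing notes list the build mm9, DESeq2, DESeq 1.14.0 and kallisto 0.45.0, with no role given. A library differed between tables by 1 constant factor, so groups were compared only within a table. The design text counts 3 uninjected and 4 treated colon samples. The labels and columns, which were followed, give 4 and 3. No label identifies an animal, so the spread behind each p-value is that of these samples alone and may be technical.

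Genes whose mean in a fit's libraries reached 1 FPKM were tested on log2(FPKM + 0.5) with limma 3.58.1 (R 4.3.3) with an intensity trend, two-sided, with Benjamini-Hochberg adjustment over all tested genes and a threshold of 0.05. Effects of ileum and colon were compared in 1 fit over both. The fits were tested on simulated data. The alternatives were other pseudocounts (0.1 and 1), no filter, quantile normalization, no trend, a replicate block and leaving out libraries. After seeing the data, leaving out libraries with over 10000 FPKM of acinar markers and a block across tissues were added. Whole reads were taken from the steps of low values, within 0.02 of a read. The members and lists were chosen with earlier results of these data known. Named genes were the 4 members, listed genes that passed or had the 3 smallest p-values of a list and comparison, neighbours, and the 5 genes most like each member. Further listed genes (Cd44, Ggcx, Vkorc1 and Runx2, with Mpo, Elane and Mepe among the markers) were named after their values were seen, for their role. A gene next to the members is not reported here. Counts over all genes include it. Data were prepared with Python 3.11.15, pandas 2.3.3 and Biopython 1.88, and plotted with matplotlib 3.10.9.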

Additional observations from a re-analysis of the deposited data

Results flagged for a closer look

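Spp1 in the library Colon uninjected 3, at 10.6 FPKM, stood apart from the other 3 uninjected colon libraries: its gap to the nearest of them was 0.932 of the range of the group, above the limit of 0.829 for 4 samples. Of 11 groups of 4 libraries checked over the 4 genes it was the 1 that did so, and chance flags about 1 in 20 groups. The same library held the most acinar transcript, the lowest sum of smooth muscle markers in the colon and the highest neutrophil sum of the uninjected group, and its label as female goes with 12.1 FPKM of Ddx3y. Which of these belongs to its Spp1 value was not tested.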

How the results depend on the processing

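Spp1 kept its direction in all alternatives of the 4 colon and ileum comparisons with treated libraries: 2.15 to 3.34 in treated minus uninjected colon, 3.17 to 4.89 in treated minus KO colon, 1.07 to 1.84 in treated minus uninjected ileum and 1.85 to 3.29 in treated minus KO ileum (log2). Counts of genes past the threshold moved. In uninjected minus KO colon 10 became 3 with the replicate block, 3 without the acinar-rich libraries and 2 to 68 with a library left out (2 without KO 1, 68 without uninjected 4). In treated minus uninjected colon 0 became 1 without the filter, 1 without the acinar-rich libraries and 0 to 4 with a library left out (4 without uninjected 3). In treated minus KO colon 37 became 14 without the acinar-rich libraries and 17 to 49 with a library left out. In uninjected minus KO ileum 1 became 2 with a pseudocount of 0.1 and 0 to 5 with a library left out, and in treated minus KO ileum 10 became 3 to 14. For the tissue difference, uninjected minus KO went from 1 to 0 with a pseudocount of 0.1, 2 with a pseudocount of 1 and 1 to 3 with a library left out, treated minus uninjected from 0 to 0 to 1, and treated minus KO from 1 to 7 without the filter and 1 to 5 with a library left out. Small differences of members that were not called changed sign: Mgp in uninjected minus KO colon was -0.12 after quantile normalization and -0.38 to 0.54 with a library left out, Bglap2 in treated minus uninjected colon -1.14 to 0.41, and Bglap in treated minus KO colon 0.013 with a pseudocount of 1 and -0.70 to 0.47. For the tissue difference the ranges with a library left out were -0.76 to 0.062 for Spp1 and -1.03 to 0.052 for Bglap in uninjected minus KO, -0.79 to 0.76 for Bglap2 in treated minus uninjected and -0.17 to 0.36 for Mgp in treated minus KO. The cause of these changes was not tested. Same-numbered uninjected and KO colon libraries did not deviate together for numbers 1, 2 and 3 (correlations 0.00, -0.00 and -0.01) but did for number 4 (0.67). In 1 of 4 the correlation was highest with its own number. The numbers are thus not shown to be a pairing, and what the number 4 libraries share was not tested. The block gave the 3 calls above. The other comparisons within a tissue had no block, since column numbers of treated and of uninjected ileum libraries cannot be matched to replicate numbers in the labels. For the tissue difference, a replicate block that took equal column numbers of a group in colon and ileum as 1 animal was added after seeing the data. It gave 1, 0 and 1 calls, as without it, and -1.43 for Spp1 in treated minus KO. Same-numbered columns correlated over 0.1 in 6 of 10 pairs (-0.141 to 0.727). Number 4 was at 0.632 in KO, 0.727 in uninjected and 0.598 in treated. Columns of equal number are not shown to be 1 animal. Depth limits both osteocalcin copies, with 0 to 58 reads per library.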
